A study of Mus musculus with 8 samples.

Results

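The matrix metalloproteinase genes of mouse chromosome 9 form a cluster of 10 genes, of which 7 are described here: Mmp13, Mmp12, Mmp3, Mmp10, Mmp8, Mmp27 and Mmp20. They were taken as the rows of the count table whose Ensembl identifier maps to these symbols, and are 7 of 49585 rows. The cluster was singled out because Mmp8 and Mmp12 had already been seen to be higher without Gata2 in these libraries, so every value of the members between genotypes is a description and carries no test. All libraries are of mouse leukemia cells labelled MA9, as the MLL-AF9 fusion oncogene is often written, with bone marrow as the labelled tissue. Cells labelled Gata2 f/f keep Gata2 alleles flanked by recombination sites, and cells labelled Gata2 KO have the genotype Gata2 -/-. Gata2 is a DNA-binding regulator that early blood cells depend on. Both groups carry MA9, and both were cultured in 15% fetal bovine serum with SCF at 20 ng/mL, IL-6 at 10 ng/mL and IL-3. Each group had 4 libraries of poly(A) RNA. The labels name no mouse strain, no age, no recombinase and no number of animals or clones, so the spread between libraries may be technical.

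Matrix metalloproteinases are zinc-dependent enzymes that are secreted as inactive proenzymes and, once cut, digest collagen, elastin and other parts of the extracellular matrix. Collagenases open the collagen triple helix, stromelysins have a broad range of substrates and activate other proenzymes, and tissue inhibitors of metalloproteinases (TIMPs) block the active site. In blood, Mmp8 is the collagenase stored in neutrophil granules and Mmp12 is the elastase made by macrophages.

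Library totals ranged from 1610369 to 6237748 counts, and counts were scaled to a library total of 1000000 (CPM). A count of 0 allows up to 3 counts, which equal 0.481 to 1.86 CPM. Counting error is all that such a limit covers. Many rows of the table are misnamed. The names used here rest on the position of the cluster near the start of the chromosome and were not checked by ubiquitous neighbours. The Gata2 row held at most 2 counts in any library of either genotype and does not check the genotype labels. The labelled cell type could not be checked either. Of 13 myeloid progenitor rows, 9 were under 1 CPM in the pooled libraries and Itgam was at 0. The 4 others, by name only, had means in Gata2 f/f and Gata2 KO of 39.1 and 32.2 CPM (Hoxa9), 33.8 and 28.9 (Spi1), 5.09 and 4.94 (Cebpa), and 1.08 and 1.38 (Ptprc). Summed levels of the 13 rows were 71.0 to 95.3 CPM in Gata2 f/f and 63.5 to 71.6 in Gata2 KO.

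The cluster spans chr9:7272514-7699585 in GRCm38, or 427 kb (GENCODE M21). In order along the chromosome the members lie at chr9:7272514-7283331 (Mmp13), chr9:7344381-7369499 (Mmp12), chr9:7445822-7455975 (Mmp3), chr9:7502352-7510240 (Mmp10), chr9:7558456-7568485 (Mmp8), chr9:7571396-7581885 (Mmp27) and chr9:7628231-7674979 (Mmp20). All 7 are protein-coding and lie on the plus strand. Mmp27 starts 2.91 kb after the end of Mmp8. The last 1261 bases of Mmp12 overlap Mmp1b on the minus strand. The library kit does not mark strand, so reads of that stretch cannot be divided between the genes, and Mmp1b itself held 0 counts. Mmp3 and Mmp10 are close relatives, and 95 windows of 65 bases, the read length, occurred in transcripts of both. Mmp8, Mmp13, Mmp27 and Mmp20 had 0 such windows in common with transcripts of any other gene, and Mmp12 had 107 of 7488 (1.43%).

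The 250 bases before the start of transcription are shown for the most abundant members, for Mmp13 and for the silent Mmp3, to set expressed beside silent members. They are RefSeq windows in GRCm38.p6 on the plus strand. Capitals mark the AP-1 motif TGANTCA and the GATA motifs AGATAA or AGATAG or else TGATAA or TGATAG, each searched on both strands. AP-1 is the Fos and Jun factor known to act on many metalloproteinase promoters. Mmp12 has a pair of annotated starts. In its second window the AP-1 and GATA motifs overlap by their last and first base.
Mmp8, chr9:7558179-7558428: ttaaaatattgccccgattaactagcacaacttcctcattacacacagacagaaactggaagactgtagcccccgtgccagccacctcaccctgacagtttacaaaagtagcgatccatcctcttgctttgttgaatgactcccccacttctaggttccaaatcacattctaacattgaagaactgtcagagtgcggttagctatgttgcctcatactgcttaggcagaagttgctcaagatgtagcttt
Mmp12 first start, chr9:7344147-7344396: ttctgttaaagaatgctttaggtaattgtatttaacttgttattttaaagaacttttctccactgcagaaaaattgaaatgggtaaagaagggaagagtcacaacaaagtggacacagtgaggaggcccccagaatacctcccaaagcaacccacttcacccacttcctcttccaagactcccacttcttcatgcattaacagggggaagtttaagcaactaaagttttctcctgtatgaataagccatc
Mmp12 second start, chr9:7347124-7347373: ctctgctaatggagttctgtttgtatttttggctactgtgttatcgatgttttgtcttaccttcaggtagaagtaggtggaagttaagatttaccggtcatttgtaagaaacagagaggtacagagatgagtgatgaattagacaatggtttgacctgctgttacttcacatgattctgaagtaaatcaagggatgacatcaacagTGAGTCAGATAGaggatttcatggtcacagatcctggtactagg
Mmp13, chr9:7272264-7272513: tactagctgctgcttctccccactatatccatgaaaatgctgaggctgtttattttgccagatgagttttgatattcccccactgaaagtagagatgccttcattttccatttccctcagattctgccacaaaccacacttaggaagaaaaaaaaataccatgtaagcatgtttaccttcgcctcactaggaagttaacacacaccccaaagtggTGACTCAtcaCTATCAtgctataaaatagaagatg
Mmp3, chr9:7445572-7445821: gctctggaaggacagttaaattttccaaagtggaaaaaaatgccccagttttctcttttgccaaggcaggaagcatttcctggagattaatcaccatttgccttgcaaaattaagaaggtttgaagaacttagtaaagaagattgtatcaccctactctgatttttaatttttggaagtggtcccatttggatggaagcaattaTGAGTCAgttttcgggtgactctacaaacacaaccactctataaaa

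The AP-1 letters occurred in 5 of 8 windows of the 7 members, against 6.75% of 32851 promoter windows of the same length. They were present before Mmp3, Mmp10 and Mmp20, the 3 members with almost no counts, and before Mmp13, where they began 35 bases before the start. N stands for any base, so this string is loose. The match before Mmp20 read TGAATCA, and the other member matches read TGAGTCA or TGACTCA. The share of all windows with C or G alone at that base was not counted. The windows of Mmp8 and Mmp27 and the first window of Mmp12 did not hold them. GATA letters occurred in 3 of 8 windows (of Mmp12, Mmp13 and Mmp27), against 26.5% of all windows. Mmp8, the most abundant member, had neither motif in this window. A match is a string of letters and not a shown binding site.

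Mmp8 and Mmp12 were the expressed members and were about 6 times higher in Gata2 KO. Mmp13 (means of 1.33 CPM in Gata2 f/f and 3.89 in Gata2 KO) and Mmp27 (0.488 and 1.90) were also higher in each Gata2 KO library. Both rest on few counts, for Mmp27 partly at or under 3. Mmp3, Mmp10 and Mmp20 were silent, with at most 3 counts in any library. For 4 of 7 members the lowest Gata2 KO library lay above the highest Gata2 f/f library. This held for 10.8% of rows tested, for 3.33% of rows with any count and for 6.43% of rows with 34 to 72 counts, the range of Mmp27 and Mmp13. The members were chosen by this contrast, so nothing is read from their count.

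Among the collagenases, Mmp8 was at 365, 336, 290 and 202 CPM in Gata2 f/f replicates 1 to 4. It was at 1054, 2540, 2145 and 1540 CPM in Gata2 KO replicates 1 to 4. The genotypes did not overlap, and replicate 1 was the lowest of the Gata2 KO libraries. The means were 298 ± 71.3 and 1820 ± 656 CPM (SD, n = 4 each), a ratio of 6.10. The fitted log2 fold change was 2.62 ± 0.29 (SE, edgeR). Mmp8 ranked 746 of all rows by mean CPM in Gata2 f/f and 68 in Gata2 KO.

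Mmp13, the other collagenase among the members, acts in cartilage and bone. It had 1, 3, 4 and 6 counts in Gata2 f/f replicates 1 to 4, and 7, 6, 24 and 21 in Gata2 KO replicates 1 to 4. In CPM, which allows for the depth of each library, the highest Gata2 f/f library was at 1.87 and the lowest Gata2 KO library at 2.78. Means were 1.33 ± 0.671 and 3.89 ± 1.33 CPM (SD, n = 4 each). On pooled counts the ratio was 3.23, with an exact 95% interval of 1.78 to 6.28 that covers counting error only. Of the 4 Gata2 f/f libraries, 2 had no more than 3 counts.

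Mmp12, the macrophage elastase, was at 50.7, 75.1, 45.4 and 22.1 CPM in Gata2 f/f replicates 1 to 4. It was at 152, 196, 539 and 246 CPM in Gata2 KO replicates 1 to 4. The genotypes did not overlap, and Gata2 KO replicate 3 stood above the other 3. The means were 48.3 ± 21.8 and 283 ± 175 CPM (SD, n = 4 each), a ratio of 5.86. The fitted log2 fold change was 2.62 ± 0.44 (SE, edgeR), and 2.08 ± 0.34 without Gata2 KO replicate 3. Mmp12 ranked 3040 by mean CPM in Gata2 f/f and 785 in Gata2 KO.

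**Figure D1:**
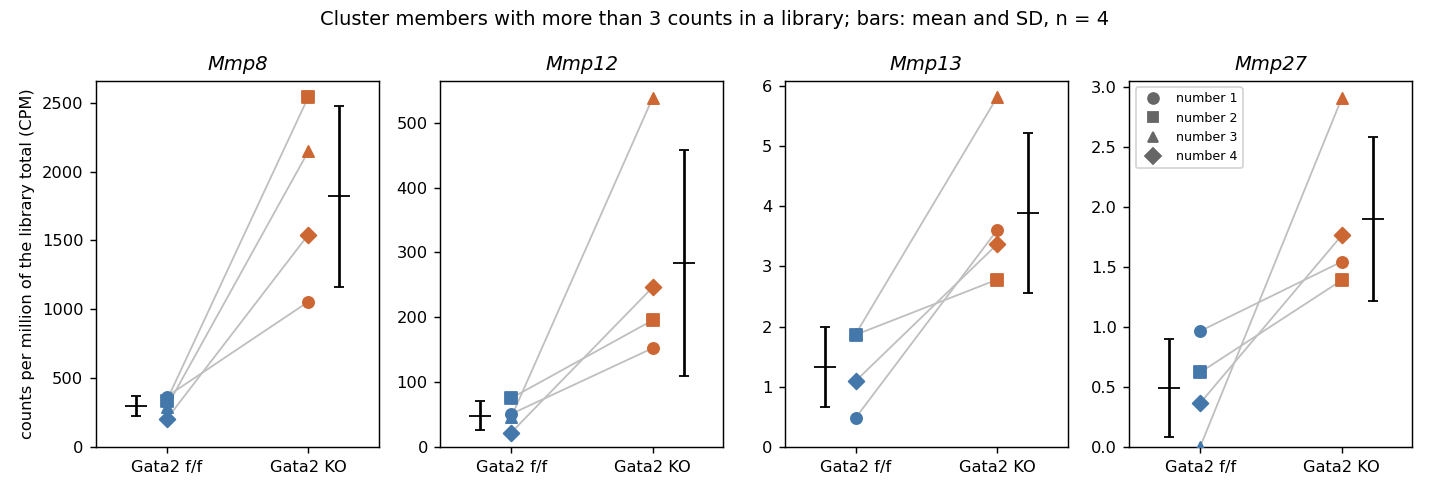
CPM of Mmp8, Mmp12, Mmp13 and Mmp27 in each library, with a grey line joining libraries of the same replicate number and bars for the mean and SD (n = 4). In each panel every Gata2 KO library lies above every Gata2 f/f library, and the scales differ from 2540 CPM at the top for Mmp8 to 2.91 CPM for Mmp27.

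Of the stromelysins, Mmp3 had 0 counts in all 8 libraries, which allows up to 0.116 CPM in the pooled counts. Mmp10 had 0, 1, 1 and 0 counts in Gata2 f/f replicates 1 to 4 and 0, 0, 1 and 2 in Gata2 KO replicates 1 to 4. Both genotypes lay under the floor, so no fold is given. A difference in either gene was not detectable at this depth.

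Mmp27 had 2, 1, 0 and 2 counts in Gata2 f/f replicates 1 to 4, and 3, 3, 12 and 11 in Gata2 KO replicates 1 to 4. The means were 0.488 ± 0.408 and 1.90 ± 0.687 CPM (SD, n = 4 each), and the genotypes did not overlap. All 4 Gata2 f/f libraries and Gata2 KO replicates 1 and 2 had at most 3 counts. The 0 of Gata2 f/f replicate 3 allows up to 1.41 CPM, above the 1.39 CPM of Gata2 KO replicate 2. The lack of overlap thus rests on values at the floor. On pooled counts the ratio was 4.53, with an exact 95% interval of 1.73 to 15.0 for counting error. Set against its neighbour Mmp8, per 1000 Mmp8 counts Mmp27 had 0 to 2.65 in Gata2 f/f and 0.547 to 1.47 in Gata2 KO. The part that reads from beyond the end of Mmp8 play in the Mmp27 counts was not tested. Mmp20, the enamel protease that cleaves amelogenin, had 0 counts in all 8 libraries, again up to 0.116 CPM.

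Levels of different genes were compared as mean CPM per kb of exon, with exons joined over all annotated transcripts. For Mmp12 this is 7237 bases from 7 transcripts, the longest of 4474 bases, and for Mmp8 it is 2425 bases from 1. The Mmp12 values are thus lower than they would be by its longest transcript. In Gata2 f/f the order was Mmp8 at 123 ± 29.4, Mmp12 at 6.68 ± 3.01, Mmp13 at 0.497 ± 0.251, Mmp27 at 0.221 ± 0.185 and Mmp10 at 0.158 ± 0.186 CPM per kb (SD, n = 4 each). In Gata2 KO the same quantity was 750 ± 270 for Mmp8, 39.1 ± 24.1 for Mmp12, 1.46 ± 0.496 for Mmp13, 0.860 ± 0.311 for Mmp27 and 0.0817 ± 0.0962 for Mmp10. The order was the same in both genotypes. Mmp13 and Mmp27 overlapped between libraries in both genotypes, and Mmp10 overlapped with Mmp13 and with Mmp27 in Gata2 f/f. Mmp8 and Mmp12 did not overlap with each other or with a lower member in either genotype.

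**Figure D2:**
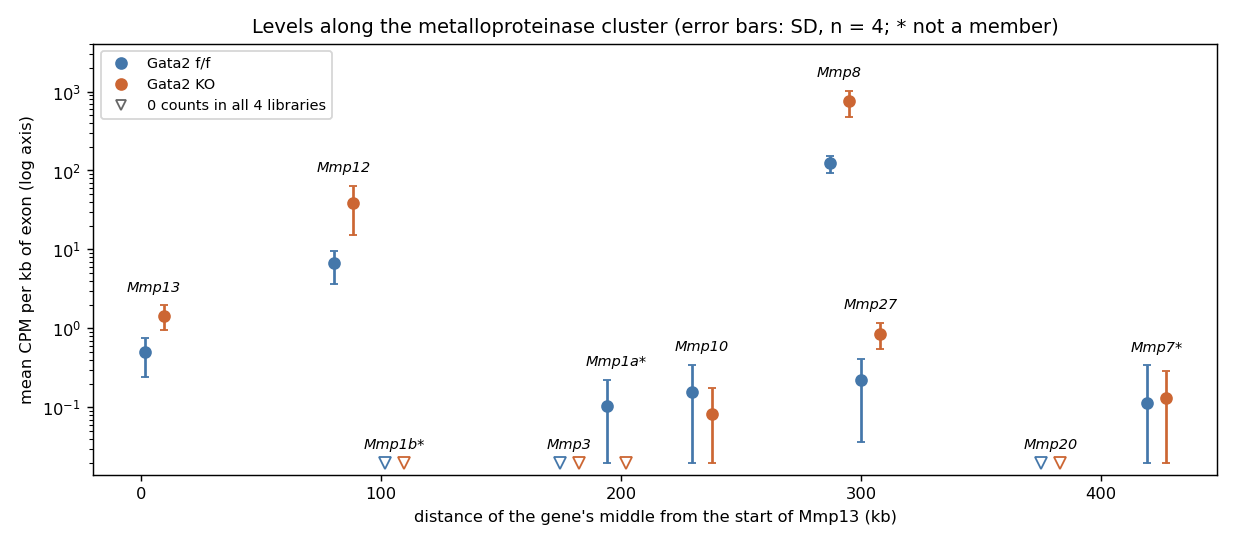
Mean CPM per kb of exon on a log axis, for the 10 genes of the cluster by distance from the start of Mmp13, with Gata2 f/f and Gata2 KO points set slightly apart, SD bars (n = 4) cut off at the foot of the axis, and open triangles for 0 counts. Mmp8 at 750 in Gata2 KO lies between Mmp10 at 0.0817 and Mmp27 at 0.860, and the silent Mmp1b, Mmp3, Mmp1a and Mmp10 lie between Mmp12 and Mmp8.

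Together the members held 417, 414, 338 and 226 CPM in Gata2 f/f replicates 1 to 4. They held 1211, 2740, 2693 and 1792 CPM in Gata2 KO replicates 1 to 4. The mean share of the library was 0.0349 ± 0.00900% in Gata2 f/f and 0.211 ± 0.0740% in Gata2 KO (SD, n = 4 each). Mmp8 and Mmp12 made up 99.3 to 99.8% of this sum. The ratio of Mmp12 to Mmp8 overlapped between the genotypes. Mmp12 had 15.7 ± 4.85 counts per 100 Mmp8 counts in Gata2 f/f and 15.8 ± 7.17 in Gata2 KO (SD, n = 4 each). Within Gata2 KO that ratio ran from 7.70 in replicate 2 to 25.1 in replicate 3. The correlation of their deviations from the genotype means, on log2 CPM, was 0.67 over 8 libraries, which differ in depth and may be paired by replicate number. By this correlation Mmp12 ranked 360 of 5249 rows in likeness to Mmp8.

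Compared within replicate numbers, Mmp8 was 2.89, 7.56, 7.40 and 7.63 times higher in the Gata2 KO library of numbers 1 to 4. Mmp12 was 3.004, 2.60, 11.9 and 11.2 times higher. The smallest step of Mmp8 was thus in number 1 and that of Mmp12 in number 2. Mmp13 was higher by 7.46, 1.49, 3.10 and 3.07 times, on the few counts given above. With the replicate number as a block in the model the log2 fold changes were 2.60 ± 0.17 for Mmp8 and 2.64 ± 0.25 for Mmp12 (SE, edgeR).

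**Figure D3:**
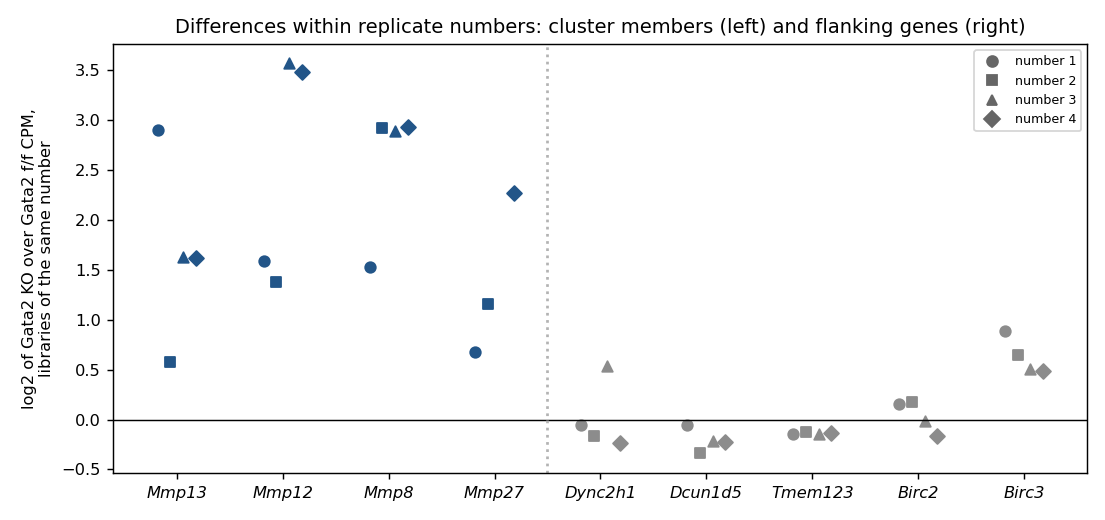
Log2 ratio of the Gata2 KO to the Gata2 f/f library of the same replicate number, for cluster members (blue) and genes flanking the cluster (grey), on CPM; number 3 of Mmp27 is left out because its Gata2 f/f library had 0 counts. The members lie between 0.58 and 3.57, and the flanking genes between -0.34 and 0.89.

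Of the nearest genes listed on each side of the cluster, Birc3 rose and Dync2h1, Dcun1d5, Tmem123 and Birc2 did not pass the test without the block. Dync2h1 (chr9:6928503-7184446), on the Mmp13 side, was at 55.51 ± 19.7 CPM in Gata2 f/f and 55.45 ± 14.1 in Gata2 KO (SD, n = 4 each; adjusted p = 0.981, edgeR). Dcun1d5 (chr9:7184520-7208205), a cullin neddylation factor, lies before Mmp13 and was at 1121 ± 185 CPM in Gata2 f/f and 975 ± 193 in Gata2 KO (SD, n = 4 each). It differed by -0.18 ± 0.19 on the log2 scale (SE; edgeR adjusted p = 0.618, or 0.0184 with the block). Tmem123 (chr9:7764041-7794333), a membrane protein gene after the cluster, was at 1149 ± 183 and 1044 ± 168 CPM (adjusted p = 0.744, edgeR). Birc2 (chr9:7818227-7837064), an inhibitor of apoptosis that regulates NF-kB signalling, was at 99.9 ± 10.8 and 102 ± 7.27 CPM (adjusted p = 0.865, edgeR). Its paralog Birc3 (chr9:7848699-7873186) rose from 183 ± 26.5 to 283 ± 33.5 CPM, by 0.65 ± 0.12 on the log2 scale (SE; edgeR adjusted p = 0.00540), and was higher in all 4 numbers. Yap1, farther on, had 2 counts in all libraries together.

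Of 22 genes listed on this end of the chromosome, 21 were in the table and 12 were tested. Birc3 was the 1 called, against 12.5% of all rows tested, where 8.97% were called upward and 3.53% downward (35.5% in either direction with the block). With the block 3 were higher (Birc3, Casp1, Casp4) and 3 lower (Alkbh8, Aasdhppt, Dcun1d5). Casp1, the inflammatory caspase that matures IL-1 beta, was at 197 ± 26.2 and 272 ± 28.3 CPM without overlap (SD, n = 4 each, adjusted p = 0.0605, edgeR). The 3 genes of the cluster that are not among the members were silent in both genotypes. Mmp7, which encodes matrilysin, had 4 counts in all 8 libraries, and the rodent collagenase genes Mmp1a and Mmp1b had 3 and 0.

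Rows named for other parts of the system lie elsewhere in the genome, where names are less certain, so they are names of rows. Over all rows tested, 12.5% were called in edgeR and 35.5% with the block. Each list below had too few rows tested to be set apart from these shares by its calls. Of 13 metalloproteinase rows outside the cluster, 3 were tested and 0 passed, also with the block. In edgeR 0 of the 3 had an unadjusted p under 0.05. They were Mmp15, at 23.2 ± 5.38 and 18.7 ± 4.53 CPM, Mmp17 and Mmp24. Of 7 inhibitor rows 2 were tested and 0 passed: Timp2, at 75.0 ± 10.6 and 89.6 ± 20.0 CPM (adjusted p = 0.255, edgeR, and 0.0183 with the block), and Reck (adjusted p = 0.699, edgeR). Of these 2, 0 had an unadjusted p under 0.05. Of 7 rows of the plasminogen system, which activates proenzymes, 3 were tested and 1 fell. This was Serpine2, an inhibitor of such proteases, at 8.33 ± 2.01 and 1.52 ± 0.975 CPM (SD, n = 4 each; log2 fold change -2.44 ± 0.40, adjusted p = 0.00201, edgeR).

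Of 11 rows of the related ADAM and ADAMTS proteases, 3 were tested and 0 passed in edgeR, with 0 at an unadjusted p under 0.05, while Adam19 was lower with the block (adjusted p = 0.0289). Of 7 AP-1 rows, Junb was the 1 tested, at 357 ± 37.9 and 339.6 ± 23.7 CPM (adjusted p = 0.832, unadjusted 0.640, edgeR). DESeq2 made 2 calls over all these lists and the flanking genes, as many as edgeR. In these lists the median log2 fold change was -0.02 for other metalloproteinases, 0.03 for inhibitors, -0.41 for the plasminogen system and 0.09 for ADAM and ADAMTS rows, beside -0.01 over all rows tested.

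Marker rows of the cell types known for these enzymes were read by name only. Of 10 neutrophil granule rows 9 were under 1 CPM in the pooled libraries, Ly6g, S100a8 and S100a9 were at 0, and the summed level was 20.5 to 30.7 CPM in Gata2 f/f and 16.99 to 33.0 in Gata2 KO. Ltf, the granule row above 1 CPM, was at 26.2 ± 3.87 and 25.0 ± 6.08 CPM (SD, n = 4 each). Of 13 macrophage rows 10 were under 1 CPM, with Cd68, C1qa, C1qb, C1qc and Marco at 0. Their sum was 38.3 to 46.6 CPM in Gata2 f/f and 47.4 to 73.9 in Gata2 KO. The most abundant, Gpnmb, was at 39.9 ± 2.46 and 53.7 ± 8.57 CPM (SD, n = 4 each; edgeR adjusted p = 0.0684, or 0.00359 with the block). Of 8 osteoclast rows 6 were under 1 CPM and Acp5 was at 0. Their sum was 13.3 to 21.6 CPM in Gata2 f/f and 28.3 to 159 in Gata2 KO. Among them Atp6v0d2 rose from 7.83 ± 4.38 to 59.2 ± 58.7 CPM (SD, n = 4 each; edgeR adjusted p = 0.0102). Stromal rows summed to 5.31 to 10.3 and 5.45 to 12.97 CPM, with 6 of 9 under 1 CPM and Lum at 0, and all 4 enamel rows were under 1 CPM. The macrophage and osteoclast sums were thus higher in Gata2 KO, but by mean level there Gpnmb and Atp6v0d2 were the largest part of each. Nfatc1 (means of 8.98 CPM in Gata2 f/f and 13.8 in Gata2 KO) and Mrc1 (0.639 and 6.24) were also higher. Msr1 (0.631 and 0.0401) and Ctsk (0.272 and 0.249), both under 1 CPM, were not. Csf1r, a macrophage row above 1 CPM in the pooled libraries, was at 1.57 ± 1.03 and 1.92 ± 0.184 CPM (SD, n = 4 each). Its genotypes overlapped. The sums therefore do not show that the marker lists moved as a whole. The part of these cell types in the result was not tested. In bulk RNA, more cells of a type and more RNA per cell cannot be told apart.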

How the data were processed

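The authors deposited 1 table of whole-number counts per Ensembl gene for 8 libraries, not normalized, made, per the labels, from read pairs 65 bp long. The submitters' processing notes name mm10, kallisto, HTSeq and DESeq2. Which tool made the counts, and with which annotation, was not given in the sources used here. Sample descriptions tied each column to its library. Symbols were found for 49326 of 49585 rows, and 21625 rows held 0 in all libraries. Coordinates and exon lengths are GENCODE M21 (GRCm38), and promoter windows are from RefSeq (GRCm38.p6), where all 7 members matched.

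CPM used the library total. Rows were fitted with edgeR 4.0.16 (R 4.3.3; TMM scaling, expression filter with a minimum count of 10, quasi-likelihood F-test, genotype alone), with Benjamini-Hochberg adjustment over 6580 rows. A call is an adjusted p under 0.05. The SE is the log2 fold change over the root of F. Mmp8 and Mmp12 were the 2 of 7 members to pass the filter. A member was silent with at most 3 counts in every library. Alternatives were DESeq2 1.42.0, other scalings, no filter, libraries left out and the replicate block.

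Replicate numbers come from the sample titles. Deviations of same-numbered libraries from the genotype means correlated at 0.333, 0.213, 0.243 and 0.804 for numbers 1 to 4, all over 0.1. The replicate number was treated as a pairing in the alternative fit with the block. Among numbers 1 to 3, differently numbered libraries correlated at 0.0948 to 0.182, mostly also over 0.1. A value over 0.1 therefore does not show a pairing. Libraries numbered 4 correlated at -0.474 to -0.333 with those of other numbers. Libraries of 1 genotype differed by more than sampling noise. Chi-square over its degrees of freedom was 2.20 to 5.30 among numbers 1 to 3, and 10.5 to 19.0 against number 4. The libraries numbered 4 thus stood apart from the others.

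The members and gene lists were chosen with earlier results of these data known. Named were all 10 genes of the cluster, genes flanking it, and of each list the rows past the threshold or else up to 2 with the smallest adjusted p. Mmp17, Ltf, Gpnmb, Atp6v0d2, Casp1 and rows called only with the block were named after their values were seen. The same holds for Nfatc1, Mrc1, Msr1, Ctsk, Csf1r, Hoxa9, Spi1, Cebpa and Ptprc.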

Additional observations from a re-analysis of the deposited data

Results flagged for a closer look

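Each group of 4 libraries was checked for a library far from the other 3, for the members, their sum and the named list rows. Of 30 groups checked, 2 had a library beyond the 95% critical value of Dixon's ratio, about what chance gives at 1 in 20 groups, and neither concerned a cluster member. The Serpine2 row was at 5.31 CPM in Gata2 f/f replicate 1 and at 9.31 to 9.37 CPM in the other 3 Gata2 f/f libraries. The Junb row was at 304 CPM in Gata2 KO replicate 2 and at 347 to 355 CPM in the other 3 Gata2 KO libraries.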

How the results depend on the processing

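The log2 fold changes of Mmp8 and Mmp12 kept their sign and moved by less than the spread between libraries under all 15 alternatives. Leaving out 1 library gave 2.41 to 2.80 for Mmp8 and 2.08 to 2.90 for Mmp12. The mean sum of the members was 1899 to 2408 CPM in Gata2 KO and 326 to 390 in Gata2 f/f with 1 library left out. With a limit of 0 counts in every library 2 members were silent (Mmp3 and Mmp20) in place of 3. Calls over the whole table numbered 822, and 548 to 1103 with 1 library left out. They numbered 2339 with the replicate block, 1437 without both libraries numbered 4, and 1727 without these and with the block. Calls in the fixed lists numbered 2, and 2 to 3 with 1 library left out. They numbered 9 with the replicate block, 4 with library totals in place of TMM scaling, 5 without both libraries numbered 4, and 6 without these and with the block. The cause was not tested. Mmp24 (log2 fold change 0.08) gave -0.48 to 0.69 with 1 library left out, of which -0.10, -0.03 and -0.01 came without Gata2 f/f replicates 1, 2 and 3. Junb (-0.06) gave -0.12 to 0.052, the latter without Gata2 f/f replicate 1. Depth limits Mmp3, Mmp10 and Mmp20, at or under 3 counts in every library, and the Gata2 f/f levels of Mmp13 and Mmp27, at 0 to 6 counts. It also limits Mmp27 in Gata2 KO replicates 1 and 2, at 3 counts each.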

Other observations

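Rows whose log2 CPM pattern over the 8 libraries was most like that of Mmp8, of 5249 rows compared, were Rasgrf1 (Pearson r = 0.99), Blk (0.99), Gmcl1 (0.99), Fgfbp1 (0.99) and Cacna2d2 (0.98). For Mmp12 they were Rasgrf1 (0.97), Rragd (0.97), Lat (0.96), Gpnmb (0.96) and Ndrg3 (0.95). These values include the difference between genotypes by which Mmp8 and Mmp12 were chosen. By deviations from the genotype means, the rows closest to Mmp8 were Cops5 (0.99), Tmem267 (0.99), Ybx3 (0.98), Zfp27 (0.97) and Hap1 (0.96). By the same measure those closest to Mmp12 were Sult4a1 (0.95), Cenpf (0.93), Ndrg3 (0.92), Pxmp2 (0.91) and H3f3b (0.90). All are names of rows, chosen as the highest of many. The libraries differ in depth and share replicate numbers between genotypes, and a pairing by these numbers was not shown.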
